A study of Mus musculus with 4 samples.

Results

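The 10 smooth muscle genes described here were Acta2, Actg2, Myh11, Mylk, Cnn1, Tagln, Smtn, Lmod1, Des and Synpo2, found as the rows of the deposited count table with exactly these gene names. They were 10 of 56748 genes listed. RNA-seq was carried out on small intestine (SI) tissue collected 1 day post 12 Gy total-body irradiation (TBI) in 2 WT (p53+/+) and 2 p53-/- samples, the latter from mice that lack p53 throughout the body. The mice were adults matched for age and gender, and the sex of each is not given in the sources used here. Every mouse was irradiated, so the data hold no unirradiated SI, and a level here is a level after TBI. The segment of the SI and the wall layers that went into each RNA sample are not given in the sources used here. The libraries are called WT libraries 7 and 8 and p53-/- libraries 9 and 10, after the numbers in the column names, which pair no animals.

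Smooth muscle forms the circular and longitudinal layers of the outer gut wall, the thin muscularis mucosae under the crypts, and the walls of arteries and veins. It contracts when myosin light chain kinase phosphorylates the myosin light chain and lets smooth muscle myosin pull on actin filaments anchored to dense bodies and desmin filaments. The members encode the actins, the myosin heavy chain, its kinase, proteins that bind and regulate thin filaments, and proteins of the cytoskeleton to which the filaments attach. Together they can be used to follow how much of the muscle wall is present in the RNA of an SI sample.

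The 4 libraries held 17430246, 15005479, 22173164 and 19811346 counts in the order 7, 8, 9 and 10. The ribosomal RNA gene Rn18s-rs5 took 0.296%, 0.473%, 0.863% and 4.59% of them. Trp53, the gene that encodes p53, was at 57.7 and 47.1 CPM (gene counts scaled to the size of their library) in WT libraries 7 and 8. It was lower but not absent in p53-/- libraries 9 and 10, at 19.8 and 22.5 CPM. Its log2 fold change was -1.31 (SE 0.19, edgeR adjusted p = 0.0602). Both p53-/- libraries lay below both WT libraries, as for 24.4% of all tested genes. The labels do not say that the samples of a genotype came from separate mice. The paper describes its data points as biological replicates, but gives no n for the RNA-seq. The p-values measure only the spread between these libraries, which may in part be technical.

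The 10 genes were much higher in WT library 8 than in the 3 other libraries, and the p53-/- libraries lay between the WT libraries for 9 of the 10. Their summed counts made up 0.0699% of all counts in WT library 7 (95% exact binomial interval, 0.0686% to 0.0711%) and 0.6001% in WT library 8 (0.596% to 0.604%). In the p53-/- SI they made up 0.151% in library 9 (0.150% to 0.153%) and 0.104% in library 10 (0.102% to 0.105%). The share in WT library 8 was thus 8.59 times that in WT library 7. These intervals cover counting error only. In a bulk tissue sample, fewer muscle cells and less muscle RNA per cell cannot be told apart.

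Acta2 (ENSMUSG00000035783) encodes smooth muscle alpha-actin, which is shared by gut muscle and vessel walls. Its level, as CPM after TMM scaling, was 108.7 and 923 in WT libraries 7 and 8 and 229 and 180 in p53-/- libraries 9 and 10. Actg2 (ENSMUSG00000059430) encodes the gamma-actin typical of gut muscle, and had 86.4 and 823 CPM in WT SI against 140 and 116 CPM in p53-/- SI. In both actin genes the p53-/- libraries were close to each other and inside the wide WT range. Divided by Acta2, the CPM of Actg2 was 0.795 and 0.891 in the WT libraries and 0.611 and 0.649 in the p53-/- libraries. That ratio was higher in both WT libraries, although it was picked after its values were seen.

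**Figure D1:**
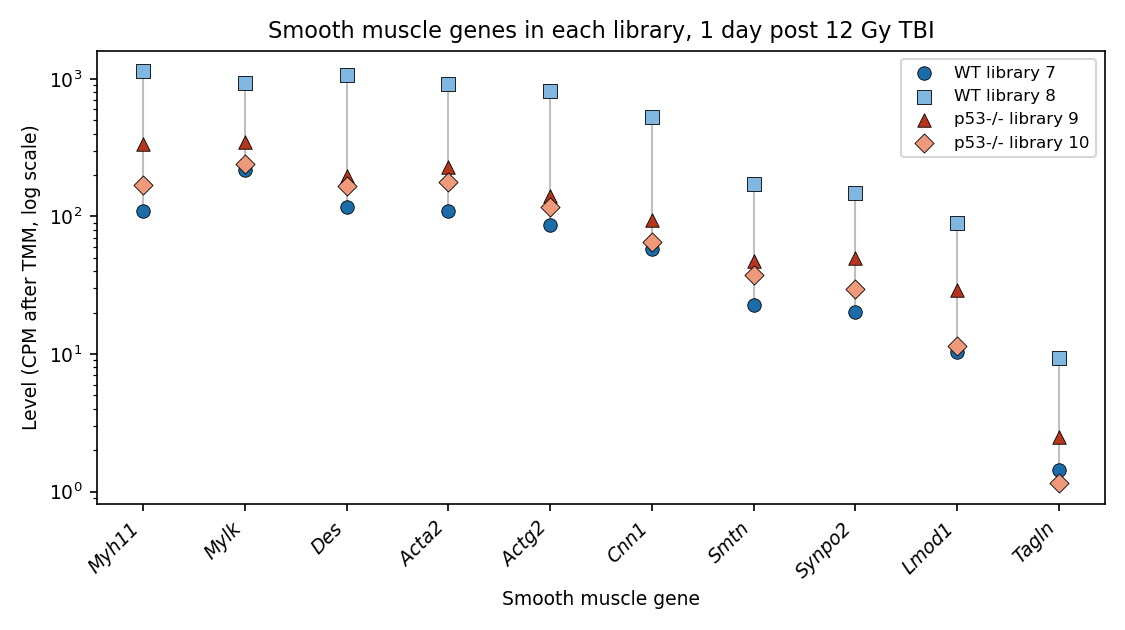
Level of each smooth muscle gene in each library, in CPM after TMM scaling on a log axis, with genes ordered by mean level; each symbol is 1 library and the grey line joins the lowest and highest. WT library 8 is the highest symbol for all 10 genes, from 9.41 CPM for Tagln to 1136 CPM for Myh11, and WT library 7 is the lowest for every gene but Tagln.

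Myh11 (ENSMUSG00000018830), the smooth muscle myosin heavy chain and the motor of contraction, had the largest gap between the WT libraries. Its level was 110 CPM in WT library 7, 1136 CPM in WT library 8, 334 CPM in p53-/- library 9 and 171 CPM in p53-/- library 10. Mylk (ENSMUSG00000022836), myosin light chain kinase, which is also made in non-muscle cells such as gut epithelium, was at 220, 935, 350 and 243 CPM in the same order. It had the smallest gap, 4.26-fold between the WT libraries against 10.4-fold for Myh11. Mylk made up 29.1% of the summed CPM of the 10 genes in WT library 7 but 16.0% in WT library 8, with 23.8% in each p53-/- library. The share of Mylk was therefore highest in the library where the other members were scarcest.

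Among proteins of the thin filament, Cnn1 (ENSMUSG00000001349) encodes calponin 1, which binds actin and restrains myosin. Its levels were 58.5 and 532 CPM in WT libraries 7 and 8 and 93.5 and 65.1 CPM in p53-/- libraries 9 and 10. Smtn (ENSMUSG00000020439), smoothelin, a marker of contractile smooth muscle, was at 22.7, 174, 47.4 and 37.7 CPM in the same order. Lmod1 (ENSMUSG00000048096), leiomodin 1, which starts new actin filaments, was at 10.4, 89.4, 29.4 and 11.4 CPM. For Cnn1 and Lmod1 the lowest WT library and the lowest p53-/- library were nearly level, while Smtn left a clearer gap between them.

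Tagln (ENSMUSG00000032085), transgelin or SM22-alpha, is usually among the most abundant smooth muscle transcripts, yet it had the fewest counts of the 10 genes. It had 23 and 145 counts in WT libraries 7 and 8 and 57 and 23 counts in p53-/- libraries 9 and 10, or 1.42, 9.41, 2.50 and 1.14 CPM. In the GENCODE M21 annotation, 67.9% of its 1988 exon bases were also exon of genes on the opposite strand, 1241 bases of the antisense gene Gm48529 and 108 bases of Pcsk7. No other member exceeded 16.3%, the value of Smtn. Gm48529 itself was at 1.30, 1.69, 1.23 and 1.79 CPM, which did not follow the muscle genes. Reads that fit 2 overlapping genes can be lost or split when strand is not used in counting; the strand setting is not given in the sources used here, and the part of the overlap in the low counts of Tagln was not tested. The pattern of Tagln over libraries was close to that of the other members, with WT library 8 at the top and p53-/- library 10, not WT library 7, at the bottom.

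Des (ENSMUSG00000026208) encodes desmin, the intermediate filament of muscle cells. WT libraries 7 and 8 held 116 and 1072 CPM of it, p53-/- libraries 9 and 10 held 196 and 166 CPM. Synpo2 (ENSMUSG00000050315), synaptopodin 2, an actin-bundling protein of muscle, was at 20.1 and 149 CPM in WT SI and 49.8 and 29.6 CPM in p53-/- SI. Both showed the same order of libraries, 8, 9, 10 and 7 from high to low, as did every member but Tagln.

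Per kilobase of exon, which allows levels to be compared between genes, the mean over the 4 libraries ran from 187 CPM per kb for Actg2 and 164 for Acta2 down to 1.82 for Tagln. Des followed the actins at 103, then Cnn1 at 68.4, Myh11 at 57.6 and Mylk at 38.8. Smtn, Lmod1 and Synpo2 were at 16.1, 8.90 and 4.75 CPM per kb. These means rest mostly on WT library 8, where Actg2 was at 528 and Acta2 at 420 CPM per kb, and the ranking changed between libraries. In p53-/- libraries 9 and 10 Acta2 was above Actg2, at 104 and 81.8 against 90.0 and 74.8 CPM per kb. Near-identical gene copies touched these levels little: at most 0.34% of the 50-base windows in a member's transcripts occurred in transcripts of another gene.

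The lower end of the order was close for some genes. From counts alone, the ratio of WT library 7 to p53-/- library 10 had a 95% exact interval that held 1 for Tagln (0.667 to 2.32) and Lmod1 (0.743 to 1.12). For the other 8 genes the interval lay below 1, from a ratio of 0.603 for Smtn to 0.905 for Mylk. Between the p53-/- libraries all 10 genes were lower in library 10, with a median log2 difference of -0.52. The smallest such difference was -0.24 for Des and the largest was -1.36 for Lmod1.

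The difference between the WT libraries was large by the standard of all genes. For the 10 members the median of the log2 ratio of WT library 8 to WT library 7, on log2 CPM with a prior count of 2, was 3.09, an 8.50-fold gap. Over all 16094 genes tested the median of that ratio was -0.06, with quartiles of -0.33 and 0.43. Only 222 genes (1.38%) had a ratio at or above the members' median, and 1054 (6.55%) had one at or above that of Mylk, the lowest member. Against WT library 8, the p53-/- libraries had median log2 ratios of -1.87 (library 9) and -2.71 (library 10), and against WT library 7 they had 0.91 and 0.47. By these medians the gap within WT was wider than any gap between a WT and a p53-/- library.

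The comparison between genotypes asks whether p53-/- SI held more or less muscle RNA than WT SI post-TBI. For 0 of the 10 genes were both p53-/- libraries below both WT libraries in CPM, beside 24.4% of all tested genes. None of the 10 genes passed the threshold in either direction in edgeR's quasi-likelihood test at an adjusted p of 0.05, beside 0.298% of all tested genes called higher and 0.193% called lower in p53-/- SI. By unadjusted p under 0.05 in edgeR the count was also 0, beside 1617 higher and 1275 lower of all 16094 genes tested. DESeq2 likewise called 0 of them, beside 796 genes called higher and 647 called lower. All 10 log2 fold changes were below 0, with a median of -1.32 against -0.01 for all genes, but each 95% interval held 0.

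The largest difference was that of Cnn1, with a log2 fold change of -1.90 (SE 0.95, 95% interval -4.27 to 0.48, edgeR adjusted p = 0.375). Actg2 and Des came next at -1.82 (SE 0.95) and -1.71 (SE 0.94). Acta2, at 516 ± 576 CPM in WT and 204 ± 35.1 CPM in p53-/- SI (SD, n = 2 each), had a log2 fold change of -1.34 (SE 0.90, edgeR adjusted p = 0.519). Those of Tagln, Myh11, Lmod1, Smtn and Synpo2 lay between -1.56 and -1.09. Mylk was nearest to 0, at -0.96 with the smallest SE of the members, 0.66 (edgeR adjusted p = 0.525). The SEs of the 10 genes, 0.66 to 1.01, stood against a median of 0.30 over all genes.

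The sign of the difference rested on which WT library was kept. Without WT library 7 all 10 log2 fold changes were below 0, from -2.73 for Cnn1 to -1.65 for Mylk. Their median was -2.16, against 0.03 for all genes. Without WT library 8 all 10 log2 fold changes were above 0, from 0.35 for Tagln to 1.198 for Myh11, with a median of 0.77 against 0.06 for all genes. In both of these fits WT was a single library, whose spread was taken to be that of the p53-/- pair, so only effect sizes are given here. Without a filter on low counts 9 members were called lower by edgeR, all but Tagln, beside 761 of all 27841 genes tested. In the filtered fits the sign of these 9 genes reversed without WT library 8, so the calls are not read as a genotype difference.

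**Figure D2:**
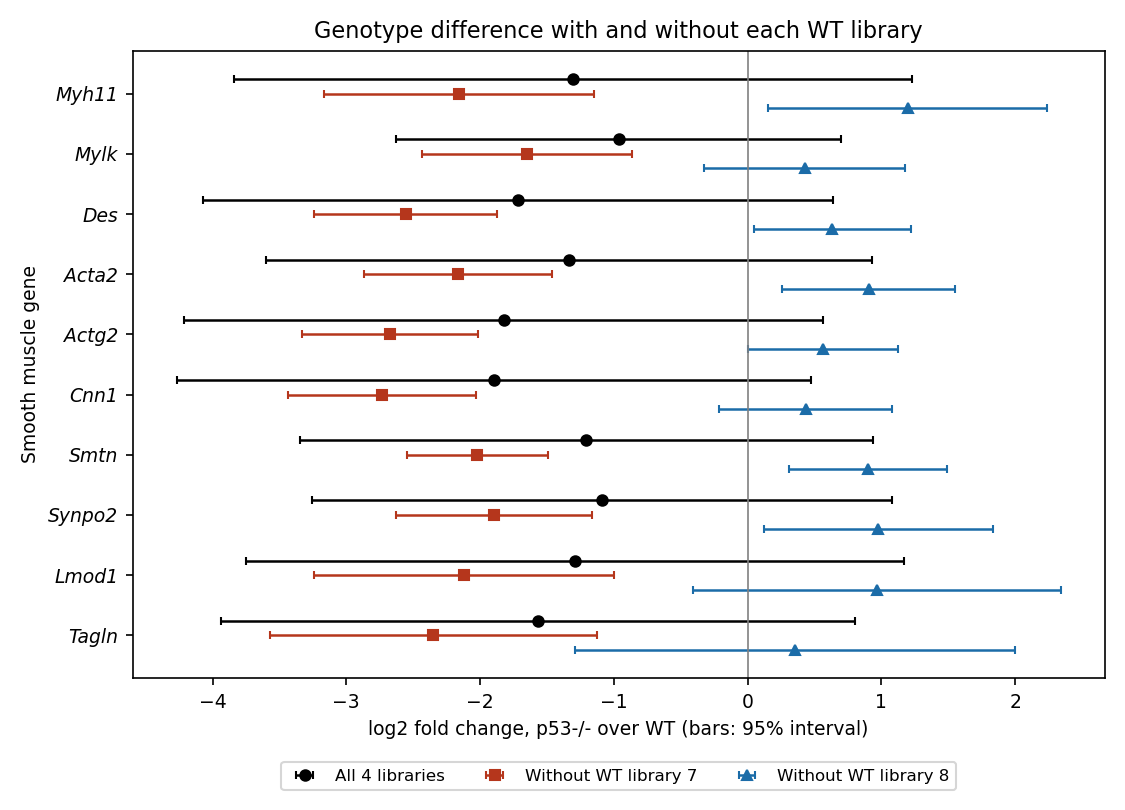
Log2 fold change of each smooth muscle gene, p53-/- over WT, with bars for the 95% interval, from all 4 libraries (black circles), without WT library 7 (red squares) and without WT library 8 (blue triangles). With all libraries each interval holds 0; the red squares run from -2.73 to -1.65 and the blue triangles from 0.35 to 1.198, on opposite sides of 0.

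Other genes of the contractile machinery shared the pattern of the 10 genes to different extents. Their lists were written from general knowledge of gene roles, but with earlier results of these data known. Of 18 genes of dense plaques and intermediate filaments, all 18 were higher in WT library 8 than in WT library 7, with a median log2 ratio of 2.51. The most abundant of them were Flna, the actin cross-linker filamin A, at 139, 1028, 332 and 242 CPM in libraries 7 to 10, and Csrp1, an actin-associated LIM protein, at 98.1, 504, 134 and 158 CPM. Both repeated the high level in WT library 8 and the low level in WT library 7. Of 16 tested genes for channels, receptors and cyclic GMP signalling, 14 were higher in WT library 8, with a median of 2.58. Pde5a, a cyclic GMP phosphodiesterase, was an exception at 220, 185, 168 and 121 CPM, while Jph2, which ties the calcium store to the cell membrane, was at 9.53, 85.1, 24.9 and 16.1 CPM.

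Lists of more general genes were mixed. In the list of myosin light chains, tropomyosins and phosphatase subunits, 10 of 11 were higher in WT library 8, but the median log2 ratio was 0.95, with single genes from -0.05 for the kinase gene Rock1 to 3.06 for Tpm2, a tropomyosin of muscle. Its most abundant genes were the myosin light chain Myl6, at 692, 880, 544 and 609 CPM, and the tropomyosin Tpm1, at 520, 1007, 435 and 367 CPM. Of 9 tested transcription factors of gut muscle, 8 were higher in WT library 8, with a median log2 ratio of 2.26 and a highest ratio of 3.12 for Myocd, the cofactor of Srf. Rock1, Tpm2 and Myocd are named as the ends of their lists, after their values were seen. Srf, the factor that binds CArG boxes, differed little between libraries at 106, 133, 109 and 103 CPM, and Gata6, which epithelium also makes, was at 103, 73.4, 83.1 and 56.8 CPM. No gene of these 4 lists was called between genotypes.

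Markers of other cells in and around the muscle wall were mostly higher in WT library 8 as well. In the vascular smooth muscle and pericyte list, all 10 tested genes were higher in WT library 8 than in WT library 7 (median log2 ratio 2.29). Rgs5, a pericyte gene, was at 42.2, 359, 111 and 88.9 CPM, and Pdgfrb, the receptor of mural cells, at 27.1, 43.0, 22.7 and 22.24 CPM. Enteric neuron genes were higher in WT library 8 in 14 of 15 cases (median 2.44). Uchl1, a neuronal ubiquitin hydrolase, was at 3.77, 22.8, 5.17 and 5.27 CPM, whereas the receptor gene Ret was at 22.16, 28.6, 17.7 and 10.9 CPM. Of 5 tested glial genes 4 were higher (median 2.64), among them Gfap at 0.866, 5.97, 0.877 and 0.746 CPM, with Gfra3 the exception at 3.34, 2.21, 3.16 and 3.53 CPM.

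Among interstitial cells of Cajal, the pacemakers that lie among gut muscle, all 5 genes were higher in WT library 8 (median 1.76). Their most abundant genes were the receptor Kit, at 13.3, 27.7, 28.8 and 26.9 CPM, and the chloride channel Ano1, at 6.56, 18.1, 10.1 and 8.26 CPM. Endothelial genes were higher in 11 of 11 cases (median 1.76). Pecam1, a junction protein of vessels, was at 7.30, 19.4, 17.9 and 33.7 CPM, and Lyve1, of lymphatics, at 9.47, 23.8, 15.7 and 11.8 CPM. All 11 were lowest in WT library 7 and 10 were highest in WT library 8, Pecam1 being the exception, and 4 had the library order of the muscle genes.

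Epithelial genes ran the other way between the WT libraries. All 17 were lower in WT library 8 than in WT library 7, with a median log2 ratio of -0.47. Apoa1, an apolipoprotein of enterocytes, was at 9438, 7799, 4785 and 4610 CPM, and Krt8, a keratin of simple epithelia, at 8137, 5329, 5298 and 4361 CPM. Set against the summed counts of the epithelial list, those of the 10 muscle genes were 1.69% and 17.5% in WT libraries 7 and 8 and 5.31% and 4.16% in p53-/- libraries 9 and 10. The gap between the WT libraries widened to 10.4-fold on this scale. All 17 epithelial genes also had log2 fold changes below 0 between genotypes (median -0.48, none called), so scaling by them raised the median of all genes by 0.55 and brought the members' median to -0.95, or -1.49 relative to all genes.

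**Figure D3:**
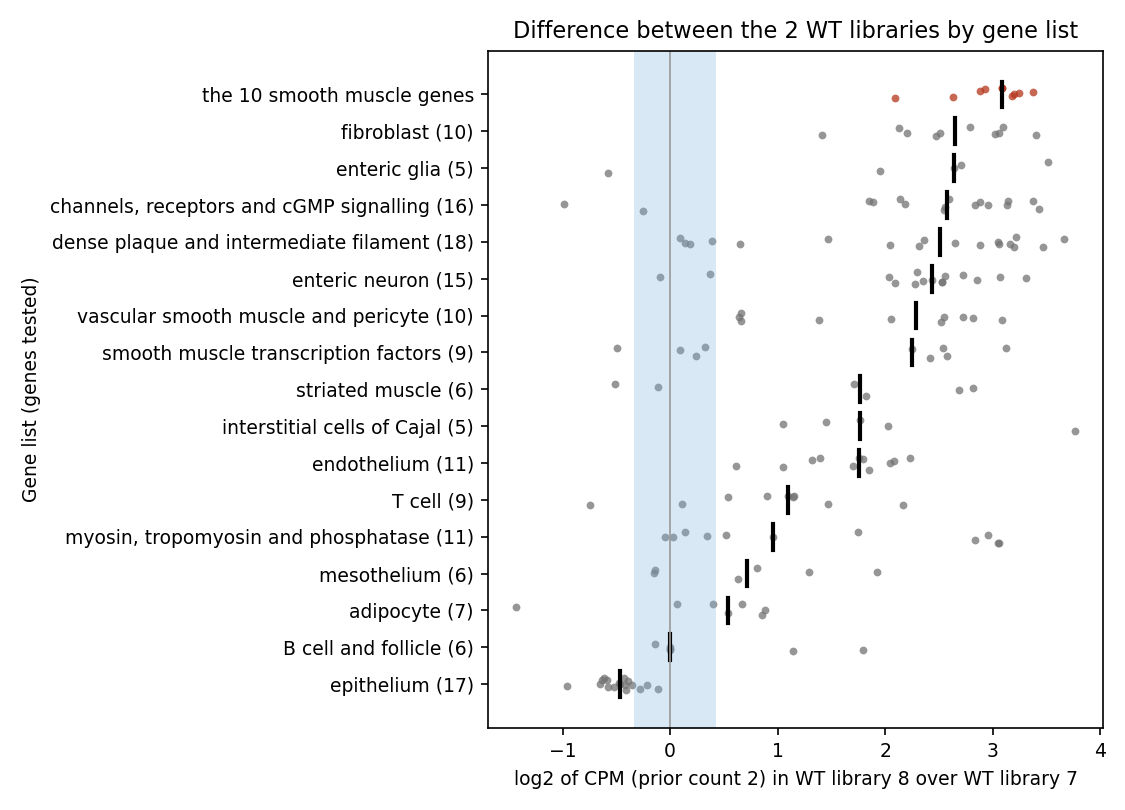
Log2 ratio of CPM (prior count 2) in WT library 8 to that in WT library 7 for each tested gene of each list; points are genes, scattered a little up and down to separate them, black bars are list medians and the blue band is the middle 50 percent of all genes tested. The 10 smooth muscle genes (red, median 3.09) have the list median farthest to the right, although single genes of other lists exceed them, and epithelium (median -0.47) lies to the left of 0.

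Fibroblast genes followed the muscle genes between the WT libraries but not between genotypes. All 10 tested were higher in WT library 8 (median log2 ratio 2.65), yet their median log2 fold change between genotypes was 0.34, and 1 of 10 was below 0. Col3a1, a fibrillar collagen, was at 43.7, 243, 175 and 168 CPM, and Col1a2 at 17.7, 123, 87.8 and 85.6 CPM. In these collagen genes the p53-/- libraries lay nearer to WT library 8, where in the muscle genes they lay nearer to WT library 7.

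Divided by the summed CPM of the fibroblast list, the summed CPM of the 10 muscle genes was 5.49 and 6.87 in WT libraries 7 and 8 and 2.72 and 1.84 in p53-/- libraries 9 and 10. On that scale the WT libraries differed by less than in their share of all counts, and the genotypes did not overlap. The same held for each of the 10 genes alone, beside 9.64% of all tested genes. The 10 genes vary together over the libraries and share this denominator, so they are not 10 separate cases. With 2 libraries a group, an exact two-sided permutation test of the summed ratio gave p = 0.333, the smallest this design allows. Any ratio without overlap gives this value, so the test cannot decide whether the genotypes differ. The ratio was chosen after its values were seen. Of 16 lists tried as the denominator, 5 put both p53-/- libraries below both WT libraries, namely fibroblast, endothelium, interstitial cells of Cajal, T cell and B cell lists. None put both above. The T cell and B cell lists were themselves higher in both p53-/- libraries than in both WT libraries. Their own rise lowers these ratios in p53-/- SI, so they say nothing more about the muscle genes.

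**Figure D4:**
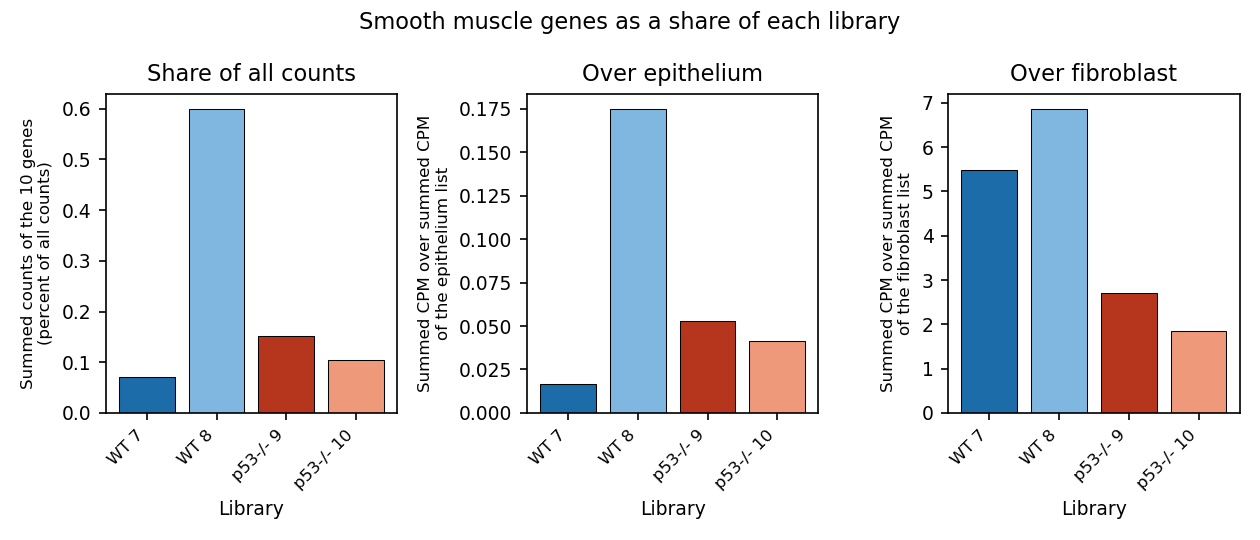
The 10 smooth muscle genes summed in each library, as their share of all counts (left), as CPM over the summed CPM of 17 epithelial genes (middle) and as CPM over that of the fibroblast list (right); each bar is 1 library. WT library 8 stands above the rest in the left and middle panels (0.6001% of all counts on the left), while in the right panel both WT bars (5.49 and 6.87) are above both p53-/- bars (2.72 and 1.84).

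Desmin and synaptopodin 2 are also made in striated muscle. Its fast myosins Myh1 and Myh4 had 0 counts in every library, and 7 of 18 striated muscle genes never passed 3 counts, while Acta1, Tnnt2 and Ckm were well above that. The list summed to 62.1, 67.3, 121 and 76.9 CPM, most of it from Acta1, skeletal alpha-actin, at 54.3, 38.1, 108 and 63.8 CPM, which did not follow the 10 genes. Of 6 tested genes 4 were higher in WT library 8, among them Tnnt2, cardiac troponin T, at 3.53, 12.8, 4.95 and 2.14 CPM and Ckm, muscle creatine kinase, at 1.42, 10.7, 2.98 and 1.94 CPM. Ckm is named after its values were seen, and was the only 1 of the 6 with the library order of the muscle genes. Mesothelial genes, which mark the outer lining of the gut, were higher in WT library 8 in 4 of 6 cases, with Upk1b at 13.99, 12.7, 13.4 and 14.4 CPM and Upk3b at 7.05, 11.0, 2.41 and 2.59 CPM.

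Adipocyte and lymphocyte lists split by genotype in their sums, which the 10 muscle genes did not. They were not alone in this. The epithelial list, the mesothelial list and the list with myosin light chains also summed lower in both p53-/- libraries than in both WT libraries. The mesothelial sums were 29.95, 38.9, 20.95 and 23.3 CPM in libraries 7 to 10. The striated muscle list summed higher in both p53-/- libraries. The adipocyte list summed to 155 and 108 CPM in WT libraries 7 and 8 and to 22.5 and 19.8 CPM in p53-/- libraries 9 and 10. Its most abundant genes were Cidec, of lipid droplets, at 117, 43.2, 18.4 and 13.8 CPM, and Fabp4, a fatty acid carrier, at 9.84, 18.3, 3.86 and 5.62 CPM. Cidec was the largest part of the list's sum in every library. Of the 7 tested adipocyte genes, 6 were higher in WT library 8 than in WT library 7 (median log2 ratio 0.54), unlike the sums. Cfd, with 175, 244, 0 and 1 counts, and Car3, with 198, 342, 5 and 5 counts, were the only genes of any list called between genotypes. The T cell list summed to 8.97 and 20.7 CPM in WT and 72.0 and 141 CPM in p53-/- SI, with Lck at 1.61, 1.75, 12.3 and 29.5 CPM and Cd8a at 1.55, 3.44, 19.9 and 19.8 CPM. The B cell and follicle list summed to 1.11, 1.82, 22.6 and 465 CPM, led by Cd79a with 3, 14, 259 and 2563 counts and Cd79b with 14, 12, 124 and 1620 counts. The part of these tissues in the levels of the muscle genes was not tested.

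Outside the 10 genes, the protein-coding genes closest to their mean profile over the 4 libraries were Rgma, Slc2a4, Nkd2, Pdlim3, Dmpk, Slc24a3, Lims2 and Hspb6. Closeness was the root mean square difference of log2 CPM centred over the 4 libraries, among 9613 genes with a mean log2 CPM of at least 3. It was 0.06 for Rgma, a membrane-anchored guidance molecule, at 4.08, 29.3, 7.63 and 5.17 CPM in libraries 7 to 10. It was 0.07 for Slc2a4, the insulin-responsive glucose transporter of muscle and fat, at 4.52, 34.6, 8.33 and 5.22 CPM. The kinase gene Dmpk, at 43.4, 321, 88.9 and 63.7 CPM, was the most abundant of the 8. The members themselves lay between 0.13 (Acta2) and 0.32 (Mylk) from their own mean profile, and 35 genes in all lay within 0.25 of it. With 4 libraries, a profile of this kind is set mainly by the height of WT library 8.

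Smooth muscle genes are classically switched on by serum response factor with myocardin at CArG boxes near their start sites. The promoter of Acta2 is shown because it was the 1 member with matches in the window examined. RefSeq promoter windows (GRCm38.p6, 250 bases before to 50 after the start site) were held for 7 of the 10 genes, all but Actg2, Myh11 and Tagln. The CArG consensus, a palindrome read on both strands, was exact in 0 of the 7 and in 1.63% of 32851 promoters. With 1 of its 6 inner bases allowed to be C or G, a rule set after the exact search, it matched Acta2 at 2 places and 9.98% of all promoters. The window of Acta2 is chr19:34255324-34255623 on the minus strand, and its matches, in capitals, begin 84 and 34 bases before the annotated start site. Whether transcription starts at that base in SI was not tested, so these distances hold for the annotation only.
Acta2: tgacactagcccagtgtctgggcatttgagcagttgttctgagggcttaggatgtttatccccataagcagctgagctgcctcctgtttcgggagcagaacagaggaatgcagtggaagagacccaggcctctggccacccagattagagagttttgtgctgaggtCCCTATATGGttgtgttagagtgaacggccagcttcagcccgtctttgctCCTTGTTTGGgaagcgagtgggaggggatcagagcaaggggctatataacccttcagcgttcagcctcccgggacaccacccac
A match is a run of letters and not a measured site, and the other 6 windows only lack these letters.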

How the data were processed

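RNA-seq covered SI of both genotypes 1 day after TBI, with 2 libraries each. The table deposited by the authors holds whole-number read counts for 56748 genes, without normalization. The submitters' processing notes list fastp, HISAT2 2.0.5, featureCounts 1.5.0-p3 and DESeq2 1.20.0; the strand setting, build and annotation release are not given in the sources used here. Counts were scaled by TMM, filtered by filterByExpr (16094 genes, all 10 members kept) and tested in edgeR 4.0.16 (R 4.3.3) by the quasi-likelihood test with Benjamini-Hochberg adjustment over all tested genes (two-sided, threshold 0.05). CPM used TMM-scaled library sizes. Replicate libraries differed beyond sampling noise (chi-square per degree of freedom 50.8 in WT and 78.5 in p53-/-). Exon lengths and overlaps came from GENCODE M21, which holds 91.9% of the gene identifiers. Members and lists were chosen with earlier results of these data known. Named genes were the members, Trp53, the 2 most abundant genes of each list, every list gene called, and the 8 nearest profiles. Genes that overlap Tagln and single list genes picked after their values were seen were named as well. The test was first checked on simulated data. Alternatives were RLE and upper-quartile factors, library sizes only, other filters, DESeq2 1.42.0, a likelihood ratio test, gene classes left out, epithelial scaling and each library left out.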

Additional observations from a re-analysis of the deposited data

How the results depend on the processing

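No paired analysis was possible because the columns carry a genotype and a library number but not the replicate numbers of the labels. All 10 members stayed below 0 under every other normalization, filter or tool tried. Of them 0 were called in each except without a filter on low counts, where 9 were called lower, beside 761 of all 27841 genes tested. Those 9 calls are not read as a genotype difference, since the sign of each gene depended on WT library 8. Leaving out 1 library in turn gave a median log2 fold change from -2.16 (without WT library 7) to 0.77 (without WT library 8). Over these 4 fits the lowest and highest log2 fold changes were -2.17 and 0.91 for Acta2, -2.67 and 0.57 for Actg2, -2.16 and 1.198 for Myh11, -2.56 and 0.63 for Des, -2.35 and 0.35 for Tagln, -2.73 and 0.43 for Cnn1, -2.02 and 0.90 for Smtn, -1.65 and 0.43 for Mylk, -2.13 and 0.97 for Lmod1, and -1.89 and 0.98 for Synpo2. Over all genes 48 were called higher and 31 lower; the counts were 29 and 20 with upper-quartile factors, 26 and 20 with library sizes only, 1433 and 761 with no filter, 24 and 18 with at least 10 counts in every library, 796 and 647 in DESeq2, 833 and 462 in the likelihood ratio test, 144 and 14 with epithelial scaling, and 0 to 680 higher and 0 to 344 lower with a library left out. The cause was not tested. The share of the 10 genes in WT library 8 over WT library 7 was 8.59 of all counts, 10.4 of epithelial counts, 8.60 without immunoglobulin and T cell receptor segments and 8.63 without the 50 most abundant genes. The p53-/- mean over the WT mean was 0.381, 0.493, 0.385 and 0.399 in the same order. Depth limits Tagln most, with 23 counts in each of its lowest libraries.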
